A study of Mus musculus with 12 samples.

Results

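The sarcomeric myosin heavy chain genes encode the motor proteins of the thick filament of striated muscle. Described here are 7 of them, Myh1, Myh2, Myh3, Myh4, Myh6, Myh7 and Myh8, out of 17178 genes named on the array. They were chosen by name and not by any measured value. Every probe whose RefSeq accession belongs to 1 of the 7 genes was taken, which gave 15 probes, 3 for Myh2 and 2 for each other gene. To be tested, a probe had to stand well above background in each of the 3 arrays of some group, as 12 of the 15 did, and every gene kept at least 1 of them. The other 3, A_52_P552036 and A_51_P225134 of Myh2 and A_52_P224283 of Myh8, were above background on 0 of 12 arrays.

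The study put the myogenic factor MyoD into mouse fibroblasts of the embryonic C3H/10T1/2 line, which can be turned into muscle, and asked what a hairpin against Six4 does to that conversion. Six4 is a homeobox transcription factor. The 4 groups, with 3 single-colour Agilent arrays each, were cells with the stable hairpin shSix4 and retroviral pBABE-MyoD, cells with the stable control hairpin shLuc and pBABE-MyoD, shSix4 cells with the empty pBABE retrovirus, and shLuc cells with the empty pBABE retrovirus. All 12 samples were moved 24 h after infection into differentiation medium with 2% horse serum for 24 h. Each hairpin is represented by 1 stable line, so hairpin and line cannot be told apart, and with forced MyoD in fibroblasts as the model no muscle precursor is among the samples. The labels do not say whether the 3 replicates of a group were separate cultures, so p-values cover the spread among these arrays alone, and that spread may be technical. Each replicate number was 1 slide that held all 4 groups, with each group at the same position on every slide, so position and group cannot be told apart.

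Myosin heavy chains convert ATP into filament sliding, and each gene encodes a chain with its own speed. During development of limb muscle, the embryonic chain of Myh3 and the perinatal chain of Myh8 precede the adult fast chains. The adult fast chains are those of Myh2 (type IIa), Myh1 (type IIx) and Myh4 (type IIb). Myh7 encodes the slow chain (type I, also the beta-cardiac chain), and Myh6 encodes the alpha-cardiac chain of the atria and the adult mouse ventricle. MyoD binds the E-box, CANNTG, and Six4 and its relatives bind a motif called MEF3. Myh3, Myh2, Myh1, Myh4 and Myh8 follow each other in this order on chromosome 11 with 0 other protein-coding genes between them, and Myh6 and Myh7 are neighbours on chromosome 14, again with 0 between them.

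The RefSeq promoter table (GRCm38.p6) held all 7 genes, Myh7 with 2 annotated starts. The 250 bases upstream of each start were searched on both strands, against 32851 such stretches of all genes. In the main fit described further on, all 7 genes were lower in shSix4 cells with MyoD, and Myh3 and Myh6 were called. The promoters of these 2 genes are shown with CANNTG and TATAAA in capitals:
Myh3, chr11:67078050-67078299, plus strand: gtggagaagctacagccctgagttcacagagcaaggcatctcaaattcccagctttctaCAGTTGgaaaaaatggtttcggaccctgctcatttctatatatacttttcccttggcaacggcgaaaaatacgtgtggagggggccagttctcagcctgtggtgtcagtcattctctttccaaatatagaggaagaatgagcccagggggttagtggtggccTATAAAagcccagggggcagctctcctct
Myh6, chr14:54966608-54966857, minus strand: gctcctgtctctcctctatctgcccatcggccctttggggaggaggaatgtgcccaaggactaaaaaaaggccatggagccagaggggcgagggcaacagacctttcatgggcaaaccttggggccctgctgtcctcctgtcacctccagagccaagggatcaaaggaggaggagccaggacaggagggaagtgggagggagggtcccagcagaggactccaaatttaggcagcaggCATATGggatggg
CANNTG was found upstream of 5 of the 7 genes (Myh3, Myh4, Myh6, Myh7 and Myh8) and of 66.2% of all starts. Its form CAGCTG was found upstream of Myh4 alone among the 7, at -67 from the start, and of 13.0% of all starts. TATAAA lay on the gene's own strand at -29 in Myh3, at -32 in Myh1 and at -31 in Myh4, and 12.4% of all stretches held it on either strand. A MEF3 sequence, TCAGGTTNC, was found upstream of 0 of the 7 genes and of 1.07% of all starts, which says only that these letters are not in these windows.

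The fast and perinatal genes of the chromosome 11 cluster share sequence that the other 3 genes do not have in these windows. The stretches that run through the longest runs common to Myh1, Myh2, Myh4 and Myh8 are shown with these runs, TCAAATTAT and TTCTAATTATATCC, in capitals:
Myh8, chr11:67277015-67277088, plus strand: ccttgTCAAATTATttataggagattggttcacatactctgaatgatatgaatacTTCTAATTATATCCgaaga
Myh1, chr11:67199881-67199960, plus strand: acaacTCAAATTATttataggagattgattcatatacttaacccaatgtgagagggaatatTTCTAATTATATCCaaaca
Myh2, chr11:67170849-67170920, plus strand: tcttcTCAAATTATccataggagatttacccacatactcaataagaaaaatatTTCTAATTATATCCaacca
Myh4, chr11:67237620-67237672, plus strand: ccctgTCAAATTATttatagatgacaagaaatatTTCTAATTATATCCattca
TTCTAATTATATCC occurred in 4 of the 32851 stretches, those of Myh1, Myh2, Myh4 and Myh8, and TCAAATTAT in 57 (0.174%). The longer run began at -160 in Myh1, -125 in Myh2, -158 in Myh4 and -54 in Myh8. In Myh1, Myh4 and Myh8 a TATAAA on the opposite strand overlaps the last base of TCAAATTAT. The map of motif matches sets these positions side by side.

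**Figure D1:**
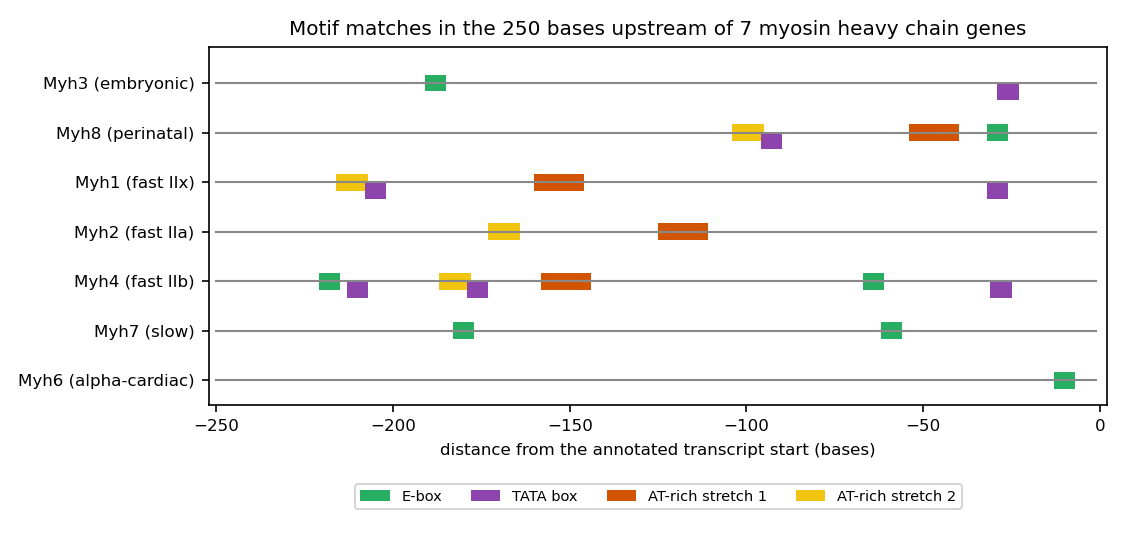
Matches of the E-box and TATA-box letters, the longer shared run (AT-rich stretch 1) and the shorter one (AT-rich stretch 2) on either strand in the 250 bases upstream of the 7 genes, by distance from the annotated start in bases, with 1 of the 2 starts of Myh7. Both AT-rich stretches lie upstream of Myh8, Myh1, Myh2 and Myh4, and the other 3 genes have E-box matches but neither stretch.

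An array had 22318 to 27448 of its 41174 probes well above background. Levels are given as log2 of the processed signal minus the 75th percentile of its array, and a level of 1 probe is not set against that of another. Six4 stood at -2.97, -2.86 and -1.47 in shSix4 cells with MyoD, against -1.38, -1.58 and -0.78 in shLuc cells with MyoD, a difference of -1.18 ± 0.49 (SE of the limma fit, adjusted p = 0.672). It was lower on each slide, and did not pass the test. Myod1 stood at -2.11, -0.79 and -0.15 in shSix4 cells with MyoD against 0.14, -0.11 and 1.31 in shLuc cells with MyoD, a difference of -1.46 ± 0.81 (limma adjusted p = 0.940). The labels do not say whether the Myod1 probe can read the retroviral MyoD. All 12 fibroblast markers were measured, with a summed linear level of 1444 to 1955 times the 75th percentile in shSix4 cells with MyoD, 1440 to 1754 in shLuc cells with MyoD, 1661 to 1920 in shSix4 cells with empty vector and 1493 to 2720 in shLuc cells with empty vector.

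MyoD raised most myosin heavy chain probes in both lines. In shSix4 cells 9 of the 12 probes, for 6 genes, passed the test with higher levels (limma, adjusted over 23993 probes, threshold 0.05), where 2.18% of all probes were called higher. In shLuc cells 11 of 12 probes, for all 7 genes, were called higher, where 3.75% of all probes were. Apart from the Myh7 probes, the 12 probes were kept only through groups with MyoD, so the filter favours these counts. The median log2 difference of the 12 probes was 5.10 in shSix4 cells and 7.64 in shLuc cells, against -0.05 in shSix4 cells and -0.11 in shLuc cells over all probes tested. Most empty-vector levels were not above background, and with each probe that no empty-vector array measured set to the lower bound explained below (9 probes in shSix4 cells, 8 in shLuc cells) the medians were 3.98 in shSix4 cells and 6.76 in shLuc cells. In these bulk samples, fewer converted cells and less RNA per cell cannot be told apart.

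Embryonic Myh3 was higher with MyoD in both lines. On probe A_51_P167668 it stood at 2.17, 2.94 and 3.57 in shSix4 cells with MyoD, at 5.41, 5.0 and 5.50 in shLuc cells with MyoD, at -7.04, -7.76 and -7.63 in shSix4 cells with empty vector and at -7.99, -7.40 and -8.43 in shLuc cells with empty vector. All 6 MyoD arrays were far above all 6 empty-vector arrays, and the 2 MyoD groups did not overlap. No empty-vector array measured Myh3 well above background, so its fold is a lower bound. The bound sets the mean with MyoD against the mean, per array, of the higher of the probe's own level and the lowest level of any probe well above background. It was at least 297-fold in shSix4 cells (limma adjusted p = 1.30e-07) and at least 2343-fold in shLuc cells (limma adjusted p = 1.83e-08). The other probe, A_52_P247953, was at least 179-fold higher in shSix4 cells and at least 1613-fold higher in shLuc cells. All bounds hold for the signal and scaling used here. The lowest level of any probe well above background was -4.80, -5.57 and -5.60 on the shSix4 empty-vector arrays. On the shLuc empty-vector arrays it was -5.85, -5.51 and -6.31. Bounds and bounded medians of the 2 lines thus start from unlike levels, and the gap between them is not a measured difference.

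Perinatal Myh8 followed the same order of groups. Its measured probe A_51_P143296 stood at 0.29, 1.61 and 2.06 in shSix4 cells with MyoD, at 2.84, 3.21 and 3.71 in shLuc cells with MyoD, at -4.74, -7.22 and -7.61 in shSix4 cells with empty vector and at -7.64, -6.95 and -7.28 in shLuc cells with empty vector. No empty-vector array was above background, and MyoD gave a level at least 98.6-fold higher in shSix4 cells and at least 566-fold higher in shLuc cells. The difference was called in both lines (limma adjusted p = 4.77e-05 in shSix4 cells and 2.48e-06 in shLuc cells).

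The adult fast genes differed among themselves, and so did the probes of 1 gene. Myh1, the IIx chain, stood on probe A_51_P192042 at 0.63, 2.06 and 2.74 in shSix4 cells with MyoD, at 3.15, 3.22 and 3.97 in shLuc cells with MyoD, at -7.05, -7.79 and -7.84 in shSix4 cells with empty vector and at -8.01, -7.11 and -4.86 in shLuc cells with empty vector, where the last array alone measured it above background. It was at least 140-fold higher with MyoD in shSix4 cells and was called higher in shLuc cells too, with no fold given against levels of which 2 of 3 were below background. The other Myh1 probe, A_51_P364788, gave 1.16 ± 0.41 in shSix4 cells (limma adjusted p = 0.339) and 1.83 ± 0.41 in shLuc cells (limma adjusted p = 0.0263), against empty-vector levels above background on 0 of 3 shSix4 arrays and 1 of 3 shLuc arrays. The call of that probe in shLuc cells was lost when either MyoD array 1 or 3 or either empty-vector array 1 or 3 of that line was left out (1.57 to 1.72, adjusted p 0.104 to 0.113).

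Myh2, the IIa chain, was measured by 1 of its 3 probes, A_51_P395652. It stood at -4.21, -2.54 and -2.54 in shSix4 cells with MyoD, at -0.90, -1.92 and -0.65 in shLuc cells with MyoD, at -7.00, -7.78 and -7.87 in shSix4 cells with empty vector and at -7.68, -7.57 and -8.51 in shLuc cells with empty vector. The groups with MyoD lay above those without and did not overlap each other. MyoD raised it at least 4.67-fold in shSix4 cells (limma adjusted p = 3.98e-04) and at least 26.6-fold in shLuc cells (limma adjusted p = 8.49e-06).

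Myh4, the IIb chain, was the gene with no call in shSix4 cells. Probe A_52_P602147 stood at -6.85, -4.60 and -4.35 in shSix4 cells with MyoD, at -3.83, -2.83 and -2.55 in shLuc cells with MyoD, at -6.40, -7.34 and -7.33 in shSix4 cells with empty vector and at -7.69, -7.12 and -7.71 in shLuc cells with empty vector. In shSix4 cells the first MyoD array was not above background and lay among the empty-vector arrays, and the difference of 1.75 ± 0.60 did not pass (limma adjusted p = 0.317). Without that array it was 2.55 and passed (limma adjusted p = 0.00897). In shLuc cells MyoD gave a level at least 7.07-fold higher (limma adjusted p = 9.26e-04).

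The other Myh4 probe, A_51_P338072, was above background on 2 of 3 shSix4 arrays with MyoD, on all 3 shLuc arrays with MyoD and on 1 of 6 empty-vector arrays, shSix4 array 3 at -2.93. Its response was 0.77 ± 1.14 in shSix4 cells and 4.37 ± 1.14 in shLuc cells (limma adjusted p = 1.000 and 0.0606), and neither passed. In shSix4 cells the sign turned to -0.16 when empty-vector array 2 was left out. In shLuc cells, where no empty-vector array measured it and MyoD gave at least 4.60-fold more, it passed with the slide as a block (adjusted p = 0.0160), without shSix4 empty-vector array 2 (0.0471) or 3 (0.00643), and without shSix4 MyoD array 1 (0.0334).

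Slow Myh7 was the 1 gene of the 7 measured above background on all 12 arrays, by both probes. On A_51_P143162 it stood at 0.21, 2.15 and 2.78 in shSix4 cells with MyoD, at 3.74, 5.04 and 5.26 in shLuc cells with MyoD, at -3.49, -4.51 and -4.09 in shSix4 cells with empty vector and at -3.14, -3.21 and -3.55 in shLuc cells with empty vector. Its folds are therefore measured on both sides and are not bounds, though they too hold for the signal and scaling used here. MyoD raised it 53.7-fold in shSix4 cells (log2 difference 5.75 ± 0.60, limma adjusted p = 2.23e-04) and 252-fold in shLuc cells (7.98 ± 0.60, limma adjusted p = 9.54e-06). The other probe, A_52_P88033, gave 80.5-fold in shSix4 cells and 346-fold in shLuc cells. Without slide 2, a comparison added after seeing the data, both probes lost the call in shSix4 cells (5.29 and 5.89, limma adjusted p = 0.0778 and 0.0505).

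Alpha-cardiac Myh6 responded too. On A_51_P512210 it stood at -4.45, -3.48 and -3.51 in shSix4 cells with MyoD, at -0.87, -0.58 and -0.69 in shLuc cells with MyoD, at -6.89, -7.54 and -7.69 in shSix4 cells with empty vector and at -7.73, -7.54 and -8.36 in shLuc cells with empty vector. All 6 MyoD arrays measured it and no empty-vector array did, which makes it at least 2.85-fold higher in shSix4 cells and at least 36.2-fold higher in shLuc cells. The other probe, A_52_P117510, gave at least 3.63-fold and at least 46.3-fold in the same lines. Of 10 cardiomyocyte markers 7 were measured, and 0 of these 7 were called in any of the comparisons, or 1, lower between the lines with MyoD, with the slide as a block. Their summed linear level was 0.244 to 0.389 times the 75th percentile in shSix4 cells with MyoD and 0.327 to 0.408 in shLuc cells with MyoD, against 0.340 to 0.573 in shSix4 cells with empty vector and 0.362 to 0.416 in shLuc cells with empty vector. Among them the atrial light chain Myl7 and the ryanodine receptor Ryr2 were not above background on all arrays of any group.

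Another background correction of the signals, normexp on the median signals, ended 5 of the 9 calls in shSix4 cells. These were Myh2 (log2 difference 1.05), both probes of Myh6 (0.63 and 0.30), Myh7 on A_51_P143162 (3.98) and Myh8 (4.16), and in shLuc cells it ended those of Myh2 (1.99), Myh4 (0.61), Myh6 (2.19 and 1.98) and Myh1 on A_51_P364788 (0.37). The calls of Myh3 on both probes (5.06 and 6.07 in shSix4 cells, 6.63 and 7.67 in shLuc cells), Myh1 on A_51_P192042 and Myh7 on A_52_P88033 held in both lines.

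**Figure D2:**
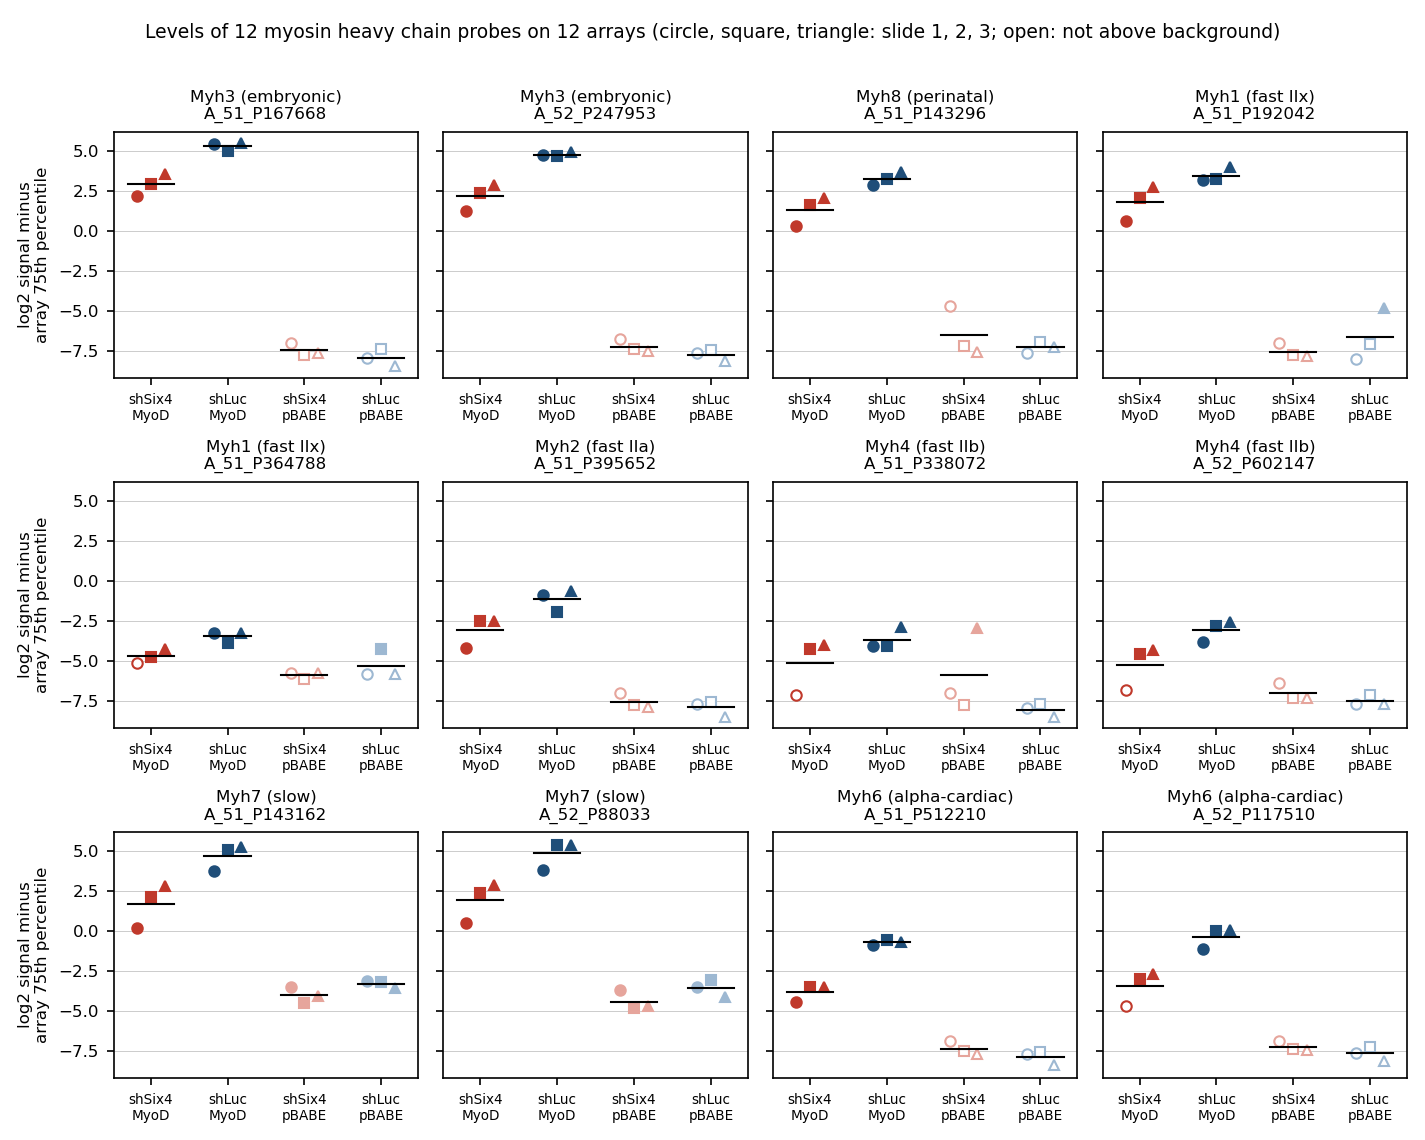
Levels of the 12 measured probes on each array, as log2 signal minus the array's 75th percentile, in the 4 groups; circles, squares and triangles are slides 1, 2 and 3, open symbols are not well above background and lines are group means. In each panel the shLuc MyoD mean is the highest, and Myh7 is the gene with filled symbols in all groups.

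**Figure D3:**
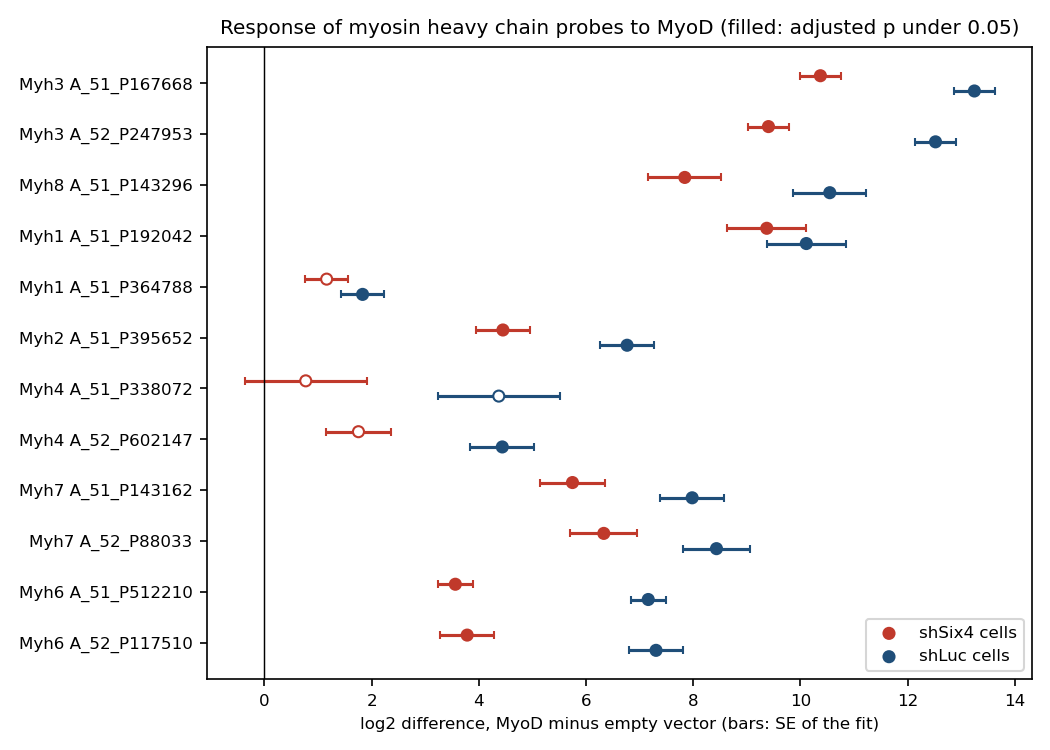
Log2 difference between MyoD and empty vector for each probe in shSix4 cells (red) and shLuc cells (blue), with the SE of the limma fit; filled points passed an adjusted p of 0.05. The estimate in shSix4 cells lies left of that in shLuc cells for all 12 probes, with 0.77 for Myh4 and 10.37 for Myh3 as its ends, and for all genes but Myh7 most empty-vector levels behind these differences were not above background.

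Between the lines that both carried MyoD, all 12 probes were lower in shSix4 cells, on each of the 3 slides. The test was passed by 4 probes of 2 genes, both of Myh3 and both of Myh6, where 0.121% of all probes were called lower. With the slide as a block, both probes of Myh7 passed as well. The groups did not overlap for 11 of 12 probes, all but Myh4 on A_51_P338072, where 5.78% of all probes lay lower without overlap. Myh1 on A_51_P364788, both probes of Myh4 and Myh6 on A_52_P117510 were kept through the shLuc MyoD arrays alone. They were above background on 2 of 3 shSix4 MyoD arrays, so for them the filter favours a lower value in shSix4 cells. The median log2 difference of the 12 probes was -2.30, against 0.01 over all probes tested. These values rest on the same shLuc and shSix4 MyoD arrays as the MyoD responses above.

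Myh6 was 8.55-fold lower in shSix4 cells on A_51_P512210 (-3.10 ± 0.32, limma adjusted p = 0.0105) and 8.60-fold lower on A_52_P117510 (-3.10 ± 0.51, limma adjusted p = 0.0482), the second probe being measured on 2 of 3 shSix4 arrays. Within slides 1, 2 and 3 the first of these probes differed by -3.58, -2.90 and -2.81. Among all 23993 probes, the Myh6 probes ranked 1 and 2 from the lowest difference in this fit. With normexp on the median signals the Myh6 probes gave -2.28 and -2.25, and the Myh7 probes were lower, at -2.65 and -2.49. Myh3 was 5.32-fold lower on A_51_P167668 (-2.41 ± 0.38, limma adjusted p = 0.0373) and 6.09-fold lower on A_52_P247953 (-2.61 ± 0.38, limma adjusted p = 0.0359), with within-slide differences of -3.24, -2.06 and -1.93 on the first.

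Slow Myh7 differed by nearly as much as Myh6, with wider spread between slides' levels. It was 7.80-fold lower on A_51_P143162 (-2.96 ± 0.60, limma adjusted p = 0.113) and 7.71-fold lower on A_52_P88033 (-2.95 ± 0.63, limma adjusted p = 0.131), ranks 4 and 5 of 23993 from the lowest. With the slide as a block both passed (adjusted p = 0.0339 and 0.0424), which makes 6 called probes, where 1.61% of all probes were called lower. The within-slide differences of A_51_P143162 were -3.53, -2.89 and -2.48.

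The perinatal and fast genes showed smaller differences that did not pass. Myh8 gave -1.93 ± 0.68 (limma adjusted p = 0.492), Myh2 gave -1.94 ± 0.50 (0.221) and Myh1 gave -1.64 ± 0.73 and -1.25 ± 0.41 (0.743 and 0.398). Myh4 gave -2.20 ± 0.60 on A_52_P602147 and -1.45 ± 1.14 on A_51_P338072 (0.269 and 1.000). A p that misses the threshold does not show that these genes were alike in the 2 lines.

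The calls of the main fit, which does not pair the samples by slide, rest on few arrays. Single arrays were left out in that fit only, and not with the slide as a block. Myh6 on A_51_P512210 lost its call without shLuc MyoD array 1, 2 or 3 (adjusted p 0.0614 to 0.0978) and kept it without each of the other 9 arrays. Myh6 on A_52_P117510 kept its call without shSix4 empty-vector array 1 only (0.0759 to 0.233 without each other array), and both Myh3 probes kept theirs without shLuc empty-vector array 2, shSix4 empty-vector array 1 or shSix4 MyoD array 3 only (0.0553 to 0.203 without each other array). All 4 calls ended with normexp on the median signals (Myh3 -2.17 and -2.33, Myh6 -2.28 and -2.25, limma adjusted p = 0.900), and with only the compared groups in the fit (limma adjusted p 0.167 to 0.263). The signs of all 12 probes stayed negative under all alternatives run.

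Slide 1 had the largest difference for 12 of 12 probes, and on it the shSix4 MyoD array was the lowest of its group for 12 of 12 probes. The shLuc MyoD array of slide 1 was the lowest of its group for 8 of 12 probes. On shSix4 MyoD array 1, 22602 probes were well above background, against 26131 and 27448 on arrays 2 and 3. Myod1 differed between the lines by -2.24, -0.67 and -1.46 on slides 1, 2 and 3, and Six4 by -1.59, -1.27 and -0.69. Myog, the myogenic factor downstream of MyoD, stood at 7.22, 6.45 and 6.90 in shSix4 cells with MyoD, against 8.18, 7.99 and 7.88 in shLuc cells with MyoD. Its difference of -1.16 ± 0.32 did not pass (limma adjusted p = 0.269). The part of these levels in the differences of the myosin heavy chains was not tested. Without slide 1, a comparison added after seeing the data, 6 probes were called, where 0.504% of all probes were called lower: Myh3 on A_52_P247953, both of Myh6, both of Myh7 and Myh4 on A_52_P602147. Over all probes 156 were called without slide 1. Without slide 2 or without slide 3, 0 of 12 and 0 of all probes were called.

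**Figure D4:**
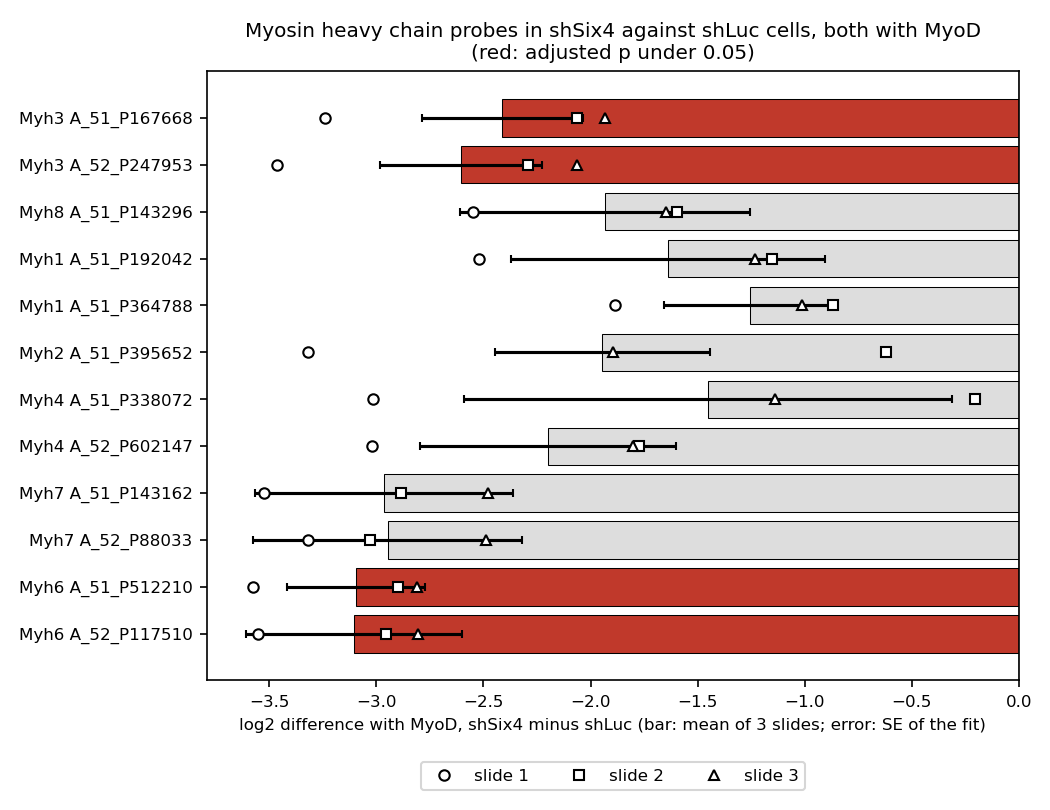
Log2 difference between shSix4 and shLuc cells, both with MyoD, for the 12 probes; bars are means over 3 slides with the SE of the limma fit, symbols are the differences within slides 1, 2 and 3, and red bars passed an adjusted p of 0.05. All symbols lie below 0, slide 1 is farthest from 0 in every row, and the Myh6 and Myh7 rows reach -2.95 to -3.10.

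The isoforms were also set against each other within each array, as the log2 ratio of 2 genes, whose difference between the lines does not depend on the scaling of the array. The 6 genes measured on all 6 MyoD arrays, each by its brightest such probe, gave 15 pairs. The ratio did not overlap between the lines in 7 pairs, each with an exact two-sided permutation p of 0.1, the smallest that 3 against 3 arrays allow, and with 0.214 after adjustment over the 15 pairs. Over all pairs of 11263 genes measured on these 6 arrays, 13% did not overlap. The 15 pairs share 6 genes and are not independent. Of the 8 pairs that set Myh6 or Myh7 against 1 of the other 4 genes, 6 did not overlap. Within slides, 12 of the 15 pairs had the same sign on all 3. Myh1 over Myh7 was higher in shSix4 cells by 1.33 on the log2 scale, within slides by 1.00, 1.73 and 1.25. Myh1 over Myh6 was higher by 1.46 and Myh7 over Myh8 lower by 1.03 (-1.03), and Myh6 over Myh7 differed by -0.13 with overlapping groups (exact permutation p = 0.7). Myh1 over Myh3 overlapped between the lines, and was higher in shSix4 cells on each slide, by 0.72, 0.91 and 0.70. The ratios are given for the main signal only, and they depend on the background correction. With normexp on the median signals, the same probes differed between the lines by -2.28 for Myh6, -2.65 for Myh7 and -2.17 for Myh3. Myh8 differed by -1.73, Myh2 by -1.69 and Myh1 by -1.32.

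With the empty vector, 0 of 12 probes were called between shSix4 and shLuc cells, where 0.0167% of all probes were called, and 0 had an unadjusted limma p under 0.05. Myh7 is the gene that both groups measured. It differed by -0.73 ± 0.60 on A_51_P143162 and by -0.84 ± 0.63 on A_52_P88033 (limma adjusted p = 1.000 for both), with overlapping groups and the same sign on all 3 slides. The other genes were above background on at most 1 of 3 arrays of either group, so no fold is given.

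Whether the 2 lines differed in their MyoD response was tested by the interaction term, which was called for 0 of 12 probes, where 0% of all 23993 were called (434 with an unadjusted limma p under 0.05). For the members 10 of 12 had an unadjusted p under 0.05. All 12 estimates were negative, between -0.67 for Myh1 on A_51_P364788 and -3.60 for Myh4 on A_51_P338072. That Myh4 value was -3.97, -0.11 and -6.72 within slides 1, 2 and 3, and -4.53 to -2.11 with 1 array left out. Myh6 on A_51_P512210, at -3.60 ± 0.46, had the lowest limma adjusted p, 0.206, and Myh3 gave -2.87 ± 0.53 and -3.12 ± 0.53 (0.449 and 0.358). That Myh6 probe passed after quantile normalization (-3.27, limma adjusted p = 0.0242). It passed in the authors' deposited values too (-3.51, limma adjusted p = 0.0121), where fewer probes were tested. It did not pass with normexp on the median signals (-1.67) or with the slide as a block (limma adjusted p = 0.216). With normexp the Myh3 probes gave -1.60 and -1.57. For all genes but Myh7 the empty-vector side of the interaction estimate rests on levels not above background on at least 2 of 3 arrays of each line.

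Other parts of the thick filament were higher with MyoD as well. Of 18 listed partners of myosin heavy chains 11 were measured, and 8 were called higher in shSix4 cells and 8 in shLuc cells. The light chain Myl1 was at least 367-fold higher with MyoD in shSix4 cells and at least 1992-fold higher in shLuc cells, and the fast regulatory light chain Mylpf rose by 8.88 ± 0.41 in shSix4 cells and by 9.57 ± 0.41 in shLuc cells. The M-band protein Myom3 and the myosin-binding protein Mybph were called in both lines too. Between the lines with MyoD, 0 of the 11 were called and 7 with the slide as a block, and their median difference was -1.44, with -2.38 ± 0.52 for Myom3, -2.22 ± 0.69 for titin (Ttn) and -1.76 ± 0.32 for the embryonic and atrial light chain Myl4 (limma adjusted p = 0.134, 0.367 and 0.0737).

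The troponins, which make the thin filament respond to calcium, show the fast and the slow programme side by side. All 3 fast troponins were called higher with MyoD in each line, and so were 4 of 5 slow and cardiac troponins. The fast troponin C, Tnnc2, rose by 8.76 ± 0.35 in shSix4 cells and by 10.39 ± 0.35 in shLuc cells, and the cardiac and embryonic troponin T, Tnnt2, by 7.62 ± 0.51 in shSix4 cells and by 9.09 ± 0.51 in shLuc cells. Between the lines with MyoD 0 of 3 fast and 0 of 5 slow and cardiac troponins were called, and 2 of 3 and 3 of 5 were called lower with the slide as a block. Their medians were -1.66 and -1.56, which lies between 0 and the -1.94 of the 7 myosin heavy chains at 1 probe a gene. Between the lines with empty vector, 0 of 3 and 0 of 5 were called, and the medians were -0.81 and -0.09.

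Of 9 genes for myosin folding and turnover 3 were higher with MyoD in each line: the myosin chaperone Unc45b, at least 146-fold in shSix4 cells and at least 691-fold in shLuc cells, and the ubiquitin ligases Trim63 and Trim54. Among 20 measured regulators of myosin heavy chain genes, 3 were called higher in shSix4 cells (Myog, the coactivator Ppargc1b and the cofactor Vgll2) and 8 in shLuc cells. Between the lines with MyoD 0 of 9 and 0 of 20 were called, and 3 of 9 and 1 of 20 with the slide as a block. The non-muscle and other conventional myosin heavy chains Myh9, Myh10 and Myh14 were called in 0 comparisons, with -0.03, -0.35 and -0.25 between the lines with MyoD.

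Markers of the muscle state moved with the myosin heavy chains. Of 9 measured skeletal muscle markers, 8 were called higher with MyoD in shSix4 cells and 9 in shLuc cells. Their summed linear level was 135 to 246 times the 75th percentile in shSix4 cells with MyoD and 376 to 520 in shLuc cells with MyoD, against 3.98 to 11.8 in shSix4 cells with empty vector and 7.19 to 10.6 in shLuc cells with empty vector. Myog, the brightest of these markers with MyoD, weighs most in the sums of the MyoD groups. Between the lines with MyoD 0 of 9 were called and 2 with the slide as a block, all 9 were lower and the median was -1.34. With empty vector 0 of 9 were called between the lines, 7 were lower and the median was -0.72, with some levels not above background. The part of these markers in the myosin heavy chain differences was not tested. Of 12 fibroblast markers 0 were called in any comparison. In sign, 11 of 12 were lower with MyoD in each line, with medians of -0.13 in shSix4 cells and -0.51 in shLuc cells. With the slide as a block, 1 was called higher and 4 lower with MyoD in shLuc cells (17.4% of all probes were called), 1 higher and 2 lower between the lines with MyoD (2.52% of all probes) and 1 lower with empty vector (0.429%).

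**Figure D5:**
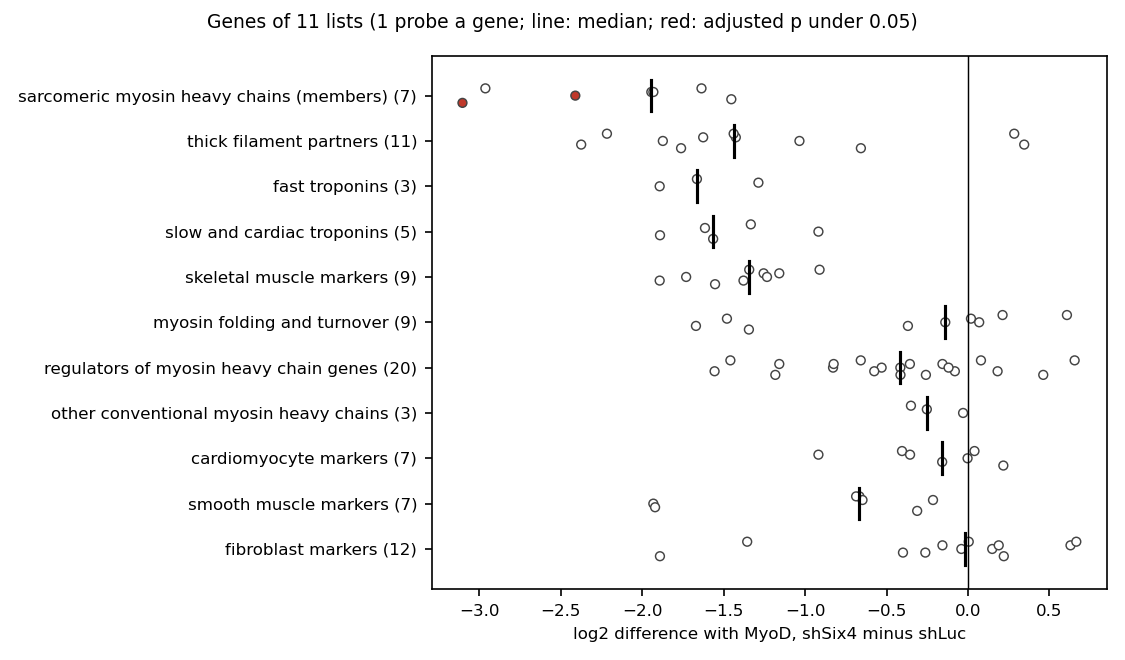
Log2 difference between shSix4 and shLuc cells, both with MyoD, for the measured genes of 11 lists at 1 probe a gene, with the number of genes in parentheses; lines are medians and red points passed an adjusted p of 0.05. The 2 red points are Myh6 and Myh3. The myosin heavy chain, thick filament, troponin and skeletal muscle marker lists have medians between -1.34 and -1.94. Smooth muscle markers centre at -0.67 and fibroblast markers at -0.02.

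Over the 12 arrays, probes of 1 gene ran closely together for Myh3 (Pearson r 0.999), Myh7 (0.998) and Myh6 (0.995) and less so for Myh1 (0.805) and Myh4 (0.756). These correlations describe arrays that share 4 groups and are not tests. Among 12137 other genes, the levels most like those of Myh3 were Gatm (r 0.999 on A_51_P167668), Cbfa2t3, Chrdl2 and Btbd17, and Gatm, Chrdl2 and Cbfa2t3 were also the most like Myh8 (0.994, 0.993 and 0.993). For Myh7 they were Fam78a (0.992), Megf10 (0.989 and 0.992), Casz1 and Adora1. For Myh6 they were Rhd (0.992), Ephb1 and the light chain Myl4 (both 0.987) on A_51_P512210, and Cav3, Fitm1 and Cacna1s on A_52_P117510 (0.985, 0.984 and 0.983).

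The fast chains were compared in the same way. Myh1 on A_51_P192042 ran most closely with Igfbp5 (0.989), Rbm24 (0.987) and Chrna1 (0.985). Myh2 ran most closely with Shisa2 (0.994), Cav3 (0.992) and Btbd17 (0.991). Myh4 ran most closely with Cphx1 (0.983), Rgs8 (0.972) and Fitm1 (0.966) on A_52_P602147, and with Spry4 (0.882), Aqr (0.877) and Fhit (0.857) on A_51_P338072.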

How the data were processed

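RNA from each of 12 samples was hybridised to 1 single-colour array. The deposited scanner files hold spot intensity on a linear scale, background-corrected and detrended within the array by the authors with Agilent Feature Extraction (the file headers name version 11.5.1.1, the submitters' processing notes 10.5.1.1). The authors also deposited normalized log2 values for 3891 probes, including 2 of the 15 probes used here (for Myh1 and Myh6), made by steps not given in the sources used here; they served only as an alternative. Each column tracked the log2 signal of the same array (r 0.9993 to 0.9998, medians 8.66 to 8.72). The free-text description of the samples contradicts the other fields and was not used.

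Control and outlier-marked spots were dropped, spots of a probe were averaged, and the 75th percentile of each array was subtracted from log2 intensity. No spot was saturated. Outlier marks removed Myod1 on 1 empty-vector array of each line. Probes were named through RefSeq accessions (24844 of 41174 matched). A probe was kept if well above background on all 3 arrays of a group. The 23993 kept probes were fitted with limma 3.58.1 in R 4.3.3 (4 group means, 12 arrays, 8 residual and 2.83 prior degrees of freedom) and adjusted by Benjamini-Hochberg within each of 5 comparisons. The number of arrays limits the precision. The fit was tested on simulated data.

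The genes and lists were chosen with earlier results of these data known. All probes of the 7 genes are reported; from each list up to 4 called genes per comparison with the largest difference were named, plus Six4 and Myod1; the other genes named from the lists were chosen after their values were seen. Likeness used the 3 genes with the highest Pearson r; those of 1 Myh1 probe are not reported here. Samples with the same replicate number shared a slide. Their deviations from the group means correlated at 0.233 to 0.804 over 18 pairs, so the number pairs the samples. The main fit does not use this pairing, and the fit with the slide as a block was an alternative. Others were normexp on median signals (the mean signal is not used here), quantile normalization, other probe filters, only the compared groups, 1 probe a gene, outlier spots kept, the authors' table and each array left out. Leaving out each slide was added after seeing the data. Probe sequences were not used here, so cross-hybridisation between these similar genes was not tested.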

Additional observations from a re-analysis of the deposited data

How the results depend on the processing

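Of the 1085 alternative values for single probes, 986 kept direction and side of the threshold, 78 lost and 15 gained the call, and 6 turned sign. The turned values concern MyoD in shSix4 cells with normexp (Myh1 on A_51_P364788 -0.056, Myh4 -0.15 and -0.096), Myh4 on A_51_P338072 without shSix4 empty-vector array 2 (-0.16) or slide 2 (-0.60; -0.60 to 2.26 with any array or slide left out), and the response difference of Myh1 on A_51_P192042 without slide 1 (0.64; -1.98 to 0.64).

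Myosin heavy chain probes called for MyoD in shLuc cells (11 of 12) came to 6 with normexp and 9 to 12 with an array or slide left out. They came to 2 of 2 with probes above background on all 12 arrays (the strict filter). At 1 probe a gene they came to 7 of 7, and in the authors' table to 2 of 2. In shSix4 cells (9 of 12) they came to 4 with normexp and 5 to 10 with an array or slide left out. They came to 2 of 2 with the strict filter and 1 of 2 in the authors' table. Between the lines with MyoD (4 of 12) they came to 0 with normexp or only the compared groups and 1 without a filter. They came to 0 to 6 with an array or slide left out. They came to 0 of 2 with the strict filter, 1 of 2 in the authors' table and 2 of 7 at 1 probe a gene. The response difference (0) came to 1 with quantile normalization and in the authors' table, for both members and all probes, and stayed at 0 otherwise.

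Over all probes, calls for MyoD in shLuc cells (1045) came to 102 with normexp, 565 with the strict filter, 158 in the authors' table and 336 to 1163 with an array or slide left out. In shSix4 cells (531) they came to 50, 190, 72 and 165 to 566, and to 303 with only the compared groups. Between the lines with MyoD (39) they came to 0, 2, 7, 0 to 156 and 0, and to 3 without a filter. With empty vector (4) they came to 0, 1, 2, 0 to 263 and 0, to 2 with quantile normalization, 0 without a filter and 7 at 1 probe a gene. With the replicate number (slide) as a block the 4 counts were 4186, 1218, 605 and 103, and members called were 12, 9, 6 and 0; the block changed no other call of a member. The cause of these changes was not tested, apart from settings that hold fewer probes or arrays. Signals near background limit all genes but Myh7 without MyoD.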

Other observations

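The Myh2 and Myh8 probes that were above background on no array have no measured level, and their signals are given as values only. Myh8 on A_52_P224283 averaged -7.70 in shSix4 cells with MyoD and -7.58 in shLuc cells with MyoD, against -7.20 in empty-vector shSix4 cells and -7.75 in empty-vector shLuc cells. The Myh2 probes A_52_P552036 and A_51_P225134 averaged between -7.43 and -6.25 in every group. Both ends belong to A_51_P225134, with -7.43 in shSix4 cells with MyoD and -6.25 in shLuc cells with MyoD.

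On single empty-vector arrays some probes stood apart from the 2 other arrays of their group. Myh4 on A_51_P338072 was at -2.93 on shSix4 array 3, against -7.03 and -7.78 on the others, while the other Myh4 probe was at -7.33 on that array. Myh1 on A_51_P192042 was at -4.86 on shLuc array 3, and on A_51_P364788 at -4.28 on shLuc array 2. Myh8 was at -4.74 on shSix4 array 1, not above background. None of these spots carried an outlier mark.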
